A study of Mus musculus with 48 samples.

Results

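Open chromatin at the loci of 6 genes whose proteins are made in quantity by maturing neutrophils (Camp, Ngp, Ltf, Lcn2, S100a8 and S100a9) was followed in mouse myeloid clones, as monocytes and as progenitors. All peaks of 48 deposited ATAC-seq peak lists that touched 5 mm9 windows were taken, and overlapping peaks were merged across lists. The windows were chr9:109730000-109770000 (Camp), chr9:110310000-110340000 (Ngp), chr9:110900000-110960000 (Ltf), chr2:32220000-32260000 (Lcn2) and chr3:90450000-90520000 (S100a8 and S100a9). They held 79 merged regions of 258607 in the whole series. ATAC-seq uses a transposase that cuts and tags accessible DNA, so a peak marks an open stretch of chromatin. The monocyte group was 24 libraries labelled as bone marrow ER-Hoxb8 monocytic cells and titled Minus. The progenitor group was 24 libraries labelled as ER-Hoxb8 GMP cells of mouse bone marrow and titled Plus. Both groups came from the same 24 clones (numbers 1 to 13 and 15 to 25), with 1 library per clone and stage. ER-Hoxb8 cells are bone marrow progenitors held immature by a Hoxb8 protein that acts only while oestrogen is present, and the labels of both groups name RPMI medium with serum, antibiotics and the growth factor SCF. The sources used here do not give mouse strain, sex, age or the length of differentiation. No clone was repeated within a stage, so p-values measure the spread between clones together with that between libraries.

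Neutrophils and monocytes arise from a shared progenitor, and neutrophils load their granules in a fixed order as they mature. Camp encodes cathelicidin, the precursor of an antimicrobial peptide, Ngp a granule protein of the cystatin-related family, and Ltf the iron-binding lactoferrin. Lcn2 encodes neutrophil gelatinase-associated lipocalin, which binds bacterial siderophores. These products belong to the secondary granules, which form late, and C/EBP epsilon is known to be needed for several of them. S100a8 and S100a9 encode the subunits of calprotectin, a calcium- and zinc-binding cytosolic complex that is abundant in neutrophils and also made by monocytes.

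The promoters of the 6 genes are shown so that sequence patterns can be compared by eye. Each is the 150 bases before the RefSeq start of the gene, written 5′ to 3′ on the gene's strand, from RefSeq annotation on GRCm38.p6. Capitals mark the C/EBP-type pattern TTNNGNAA on either strand.
Camp (chr9:109849457-109849606, minus strand): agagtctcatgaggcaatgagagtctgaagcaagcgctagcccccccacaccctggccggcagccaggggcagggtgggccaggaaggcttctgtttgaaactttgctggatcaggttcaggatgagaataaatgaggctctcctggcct
Ngp (chr9:110419658-110419807, plus strand): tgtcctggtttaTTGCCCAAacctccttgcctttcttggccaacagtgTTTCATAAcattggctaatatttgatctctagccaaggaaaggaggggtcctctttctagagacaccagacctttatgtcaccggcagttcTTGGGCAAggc
Ltf (chr9:111019142-111019291, plus strand): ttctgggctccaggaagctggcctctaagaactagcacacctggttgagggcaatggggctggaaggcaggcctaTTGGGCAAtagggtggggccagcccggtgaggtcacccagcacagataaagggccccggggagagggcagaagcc
Lcn2 (chr2:32387740-32387889, minus strand): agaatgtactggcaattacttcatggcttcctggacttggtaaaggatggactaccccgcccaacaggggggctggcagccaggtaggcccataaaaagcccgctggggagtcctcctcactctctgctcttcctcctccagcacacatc
S100a8 (chr3:90668921-90669070, plus strand): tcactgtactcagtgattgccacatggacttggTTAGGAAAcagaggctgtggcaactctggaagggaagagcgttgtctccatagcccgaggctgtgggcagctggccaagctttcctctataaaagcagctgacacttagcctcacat
S100a9 (chr3:90695722-90695871, minus strand): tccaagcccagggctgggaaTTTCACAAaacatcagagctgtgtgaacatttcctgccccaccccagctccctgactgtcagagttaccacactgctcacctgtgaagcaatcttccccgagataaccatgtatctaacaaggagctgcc
TTNNGNAA was present in 4 of the 6 promoters, against 22.7% of 32851 mouse promoters of this length. Ngp held it 3 times, starting 138, 102 and 11 bases before the start, Ltf held it 75 bases before, S100a8 117 bases before and S100a9 130 bases before. Camp and Lcn2 held no copy, though a region in each of their windows was called higher in monocytes below. Ltf held 1 copy, and its window had no called region. A link between the pattern and the calls was not tested. TATAAA, searched on both strands, was in the S100a8 promoter alone of the 6, 30 bases before the start, against 7.57% of all promoters. GAGGAA, the core of the PU.1 pattern, was in 2 of 6 on the minus strand (Lcn2 at 20 and S100a8 at 36 bases before the start), against 14.5% of all promoters, and no copy overlapped another pattern. These are letter matches and not mapped sites. The peaks lie on mm9 and the promoters on GRCm38.p6, so which peak covers which promoter was not determined, and regions are named here by window and letter only.

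Monocyte lists held 231 to 38786 peaks (median 21099) and progenitor lists 11114 to 136322 (median 82429.5), at relative depths of 0.232 to 1.43 in monocytes (median 0.746) and 0.0894 to 5.07 in progenitors (median 2.04). Relative depth was read from the authors' first score, which climbs in even steps taken as 1 tag each. The monocyte libraries of clones 3 and 10 stood apart, with 64.5% and 53.4% of their summed score on the mitochondrial sequence and low median second scores of 0.29 and 0.3. The monocyte library of clone 22 held 231 peaks. The progenitor libraries of clones 21 and 25 had the lowest relative depths of their stage, at 0.129 and 0.0894, and the progenitor library of clone 11 held 11114 peaks.

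Monocyte lists held fewer of the 79 regions but placed more peaks there for their length. A monocyte list held 0 to 27 of the regions (median 16.5) and a progenitor list 3 to 47 (median 24.5). Per 10000 deposited peaks, monocyte lists had 0 to 23.04 peaks in the 5 windows (median 8.03) and progenitor lists 2.38 to 5.82 (median 3.28). The ranges overlap, and the highest monocyte value is that of clone 15, whose list held 7378 peaks. List lengths differ between the stages, so the parts of length and stage in this rate cannot be told apart. Of the 79 regions, 25 were in a single list, 15 in 2 to 4 lists and 39 in at least 5. Of these 39, 9 were held by more monocyte than progenitor lists, against 1.2% of the 112451 regions of the series in at least 5 lists, and 11 were held by no monocyte list, against 56.4%. The 39 regions were in a median of 7 monocyte and 15 progenitor lists, against 0 monocyte and 16 progenitor lists over all regions in at least 5 lists. A peak in more cells of a culture and a stronger opening per cell cannot be told apart in these bulk libraries, and the share of granulocytic cells per culture was not measured here.

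**Figure D1:**
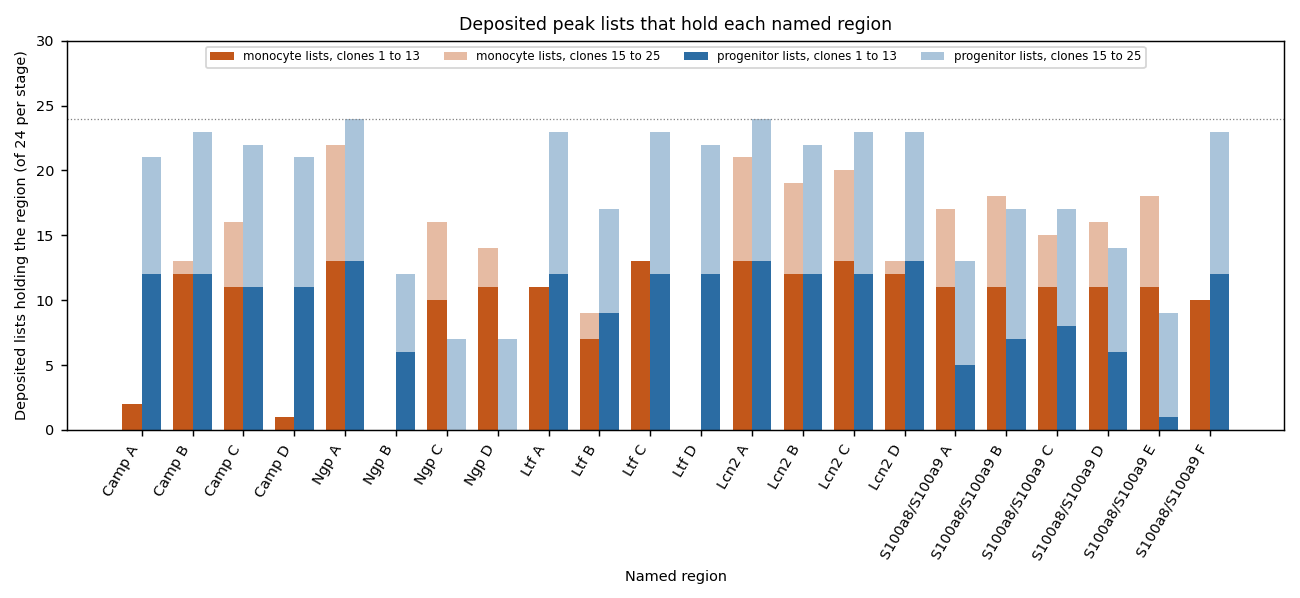
Number of deposited peak lists, of 24 per stage (dotted line), that hold each of the 22 named regions, with monocyte bars left of progenitor bars and clones 1 to 13 in dark colour below clones 15 to 25 in light colour. Ngp C, Ngp D and S100a8/S100a9 E have taller monocyte bars (16, 14 and 18 lists) than progenitor bars (7, 7 and 9 lists), and no progenitor list of clones 1 to 13 holds Ngp C or Ngp D. S100a8/S100a9 A, B and D also have taller monocyte bars (17, 18 and 16 lists against 13, 17 and 14).

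Because lists differ in length, stages were compared in lists shortened to their 10000 highest peaks, which kept 18 monocyte and 24 progenitor libraries. A region's presence among these peaks was compared by a two-sided Fisher's exact test. For its position, from 0 (not among them) to 100 (the highest peak), libraries were permuted between stages 100000 times, and p was two-sided. Both were adjusted by the Benjamini-Hochberg method over the 13589 regions held by at least 5 shortened lists. Of the 79 regions, 13 were held by that many. By presence, 8 of the 13 were called higher in monocytes, against 11.5% of all regions tested, and 0 were called higher in progenitors, against 12.4%. The 13 presence tests gave no unadjusted p under 0.05 towards progenitors. By position, the same 8 were called higher in monocytes, against 24.5% of all regions, and 1 was called higher in progenitors, against 26.2%. A region that reached 5 lists through monocytes alone had to differ, so these shares do not measure how the loci as a whole behaved. The 8 were S100a8/S100a9 A to E, Ngp C, Camp C and Lcn2 B. Each of them had at most 1 progenitor library among the shortened lists and entered the test through monocyte lists. Their calls therefore say nothing of the windows as a whole.

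In the S100a8 and S100a9 window, regions A to E were called higher in monocytes. All 5 entered the test through monocyte lists, with at most 1 progenitor library each among the shortened lists, so their number says nothing of the window as a whole. The window held 18 regions, 13 of them in at least 5 lists, and a monocyte list held 0 to 7 of them (median 6) while a progenitor list held 0 to 14 (median 8). S100a8/S100a9 E (chr3:90499652-90499861) was in 18 monocyte lists and 9 progenitor lists. Where held, it stood at percentile 0.269 to 99.3 of its list in monocytes (median 83.3) and 30.8 to 92.3 in progenitors (median 70.8), where percentile 100 is the highest peak. Percentiles describe a place within a list and, with lists of such different lengths, do not compare the stages. Its best monocyte place was rank 49 of 7378 with 156 tags in clone 15. Among the 10000 highest peaks it was in 10 of 18 monocyte libraries and in 1 of the 24 from progenitors (adjusted p = 0.00269, Fisher's exact test). Its position was 38.8 ± 38.1 in monocytes (SD, n = 18) and 0.0208 ± 0.102 in progenitors (SD, n = 24; adjusted p = 0.000388, permutation test). The monocyte values spread almost over the whole scale, and 8 of them were 0, as were 23 of the progenitor values.

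S100a8/S100a9 B (chr3:90472774-90473014) was in 18 monocyte and 17 progenitor lists as deposited, so that presence alone separated the stages little. Its median percentile was 82.7 in the monocyte lists (range 6.74 to 97.3) and 44.2 in the progenitor lists (range 0.254 to 91.6). Among the 10000 highest peaks it was in 11 monocyte libraries and 0 progenitor libraries, with a position of 37.2 ± 37.1 in monocytes and 0 in all 24 progenitors (adjusted p = 0.000166 by presence and 0.00025 by position). The best progenitor place of this region was rank 10852, in clone 18, just below the 10000 highest. Monocyte tags ran from 11 to 293 (median 68) and progenitor tags from 6 to 321 (median 27), at the depths given above. The ranges overlap, and the progenitor tags above 100 came from clones 16 to 20 and 24.

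S100a8/S100a9 A (chr3:90463564-90463876), C (chr3:90482649-90482892) and D (chr3:90490750-90491053) were each among the 10000 highest peaks in monocyte libraries alone. Region A was in 10 monocyte libraries (adjusted p = 0.00047), region C in 9 (adjusted p = 0.00133) and region D in 7 (adjusted p = 0.00835, Fisher's exact test for each), and all were in 0 progenitor libraries. Their positions averaged 23.7 ± 27.3, 14.2 ± 18.5 and 15.9 ± 25.7 in the 18 monocyte libraries and 0 in all 24 progenitor libraries (adjusted p = 0.000388, 0.000681 and 0.00417, permutation test). As deposited, they were in 17, 15 and 16 monocyte lists and in 13, 17 and 14 progenitor lists. With clones as blocks (18 pairs), the presence call of region D was lost (adjusted p = 0.0893, exact sign test), and within the commonest naming code it was 0.0517 by Fisher's exact test. In clones 1 to 13 alone, regions A and E lost the presence call (adjusted p = 0.0895 for each) and kept the position call.

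The other regions of the window included some held only by progenitor lists. S100a8/S100a9 F (chr3:90514028-90514291) was in 10 monocyte lists (median percentile 30.4, median rank 18333) and in 23 progenitor lists (77.9 and 19158.5). It reached the 10000 highest peaks in 0 monocyte and 2 progenitor libraries and was not tested. No monocyte list held the regions starting at 90456911, 90461459, 90463394, 90468257, 90471063 and 90512596, which 8 to 18 progenitor lists held. The same was true of 56.4% of all regions of the series in at least 5 lists, so it does not set this window apart. The region chr3:90486161-90486375 was in 10 monocyte and 8 progenitor lists.

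The Ngp window combined a strong region held in both stages with a pair of regions held by more monocyte than progenitor lists as deposited. Ngp A (chr9:110310630-110310927) was in 22 monocyte lists at percentiles of 30.5 to 96.5 (median 88.6) and in all 24 progenitor lists at 87.1 to 99.0 (median 97.7). All 18 monocyte and 24 progenitor shortened lists held it. Its position was 72.4 ± 12.8 in monocytes and 80.3 ± 6.80 in progenitors, a difference of -7.85 (adjusted p = 0.0296, permutation test), which turned to 46.5 when peaks were ranked by the second score (adjusted p = 0.00089). Pairing by clone ended the call (adjusted p = 0.115, exact sign-flip test), as did leaving out the monocytes of clones 3 and 10 (adjusted p = 0.0904).

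Ngp C (chr9:110317803-110318055) was in 16 monocyte lists at a median percentile of 65.9 (range 9.96 to 86.0) and in 7 progenitor lists at 60.8 (range 44.5 to 87.6). Among the 10000 highest peaks it was in 9 monocyte and 0 progenitor libraries (adjusted p = 0.00133), at positions of 18.7 ± 24.2 in monocytes and 0 in all progenitors (adjusted p = 0.000758, permutation test). Ngp C thus entered the test through monocyte lists alone. Both calls were lost in clones 1 to 13 alone, with 5 of 13 monocyte and 0 of 13 progenitor libraries holding it (adjusted p = 0.176 by presence and 0.0733 by position). Ngp D (chr9:110322058-110322305) was in 14 monocyte lists (median percentile 49.8, median rank 12159) and in 7 progenitor lists (59.5 and 52276.5). It reached the 10000 highest peaks in 2 monocyte libraries. The surplus of monocyte lists came from clones 1 to 13, with 10 against 0 for Ngp C and 11 against 0 for Ngp D. In clones 15 to 25, Ngp C was in 6 monocyte and 7 progenitor lists, and Ngp D in 3 and 7. Ngp B (chr9:110314142-110314268) was in 0 monocyte and 12 progenitor lists, and a further region starting at 110316417 was in 0 monocyte and 10 progenitor lists. Over all regions in at least 5 lists, 56.4% were in no monocyte list.

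In the Camp window, 1 of 15 regions was tested, having entered through monocyte lists, and it was called higher in monocytes. Camp C (chr9:109751977-109752293) was in 16 monocyte lists at percentiles of 53.7 to 97.7 (median 74.6) and in 22 progenitor lists at 8.55 to 91.9 (median 60.6). Among the 10000 highest peaks it was in 10 monocyte libraries and 1 progenitor library (adjusted p = 0.00269), at positions of 24.04 ± 27.8 in monocytes and 0.147 ± 0.722 in progenitors (adjusted p = 0.000298, permutation test). With clones as blocks, monocytes were higher in 10 pairs, progenitors in 1 and 7 were tied at 0. The block left the position call (adjusted p = 0.0083) and ended the presence call (adjusted p = 0.0793). Ranking by the second score ended the position call (adjusted p = 0.169).

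The other named Camp regions were held by more progenitor than monocyte lists as deposited. Only 1.2% of all regions in at least 5 lists were held by more monocyte than progenitor lists. Camp B (chr9:109735183-109735644) was in 13 monocyte lists at a median percentile of 26.8 and median rank of 17545, and in 23 progenitor lists at a median percentile of 76.3 and median rank of 19589.5. Camp A (chr9:109734899-109735072) was in 2 monocyte and 21 progenitor lists, and Camp D (chr9:109765060-109765215) was in 1 monocyte and 21 progenitor lists. None of these reached 5 shortened lists, so no stage test was made on them. Of the rest of the window, 3 regions were each in 1 monocyte list and 0 progenitor lists.

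The Ltf window had no region called in either direction. It held 24 regions, more than any other window, of which 8 were in a single list. Ltf C (chr9:110948822-110949062), the only one tested, was in 13 monocyte lists at a median percentile of 65.0 (range 4.49 to 76.9) and in 23 progenitor lists at 87.0 (range 31.7 to 94.1). Those 13 monocyte lists were all those of clones 1 to 13, and 0 of 11 later monocyte lists held it. Among the 10000 highest peaks it was in 9 monocyte and 7 progenitor libraries (adjusted p = 0.398), at positions of 6.54 ± 8.26 in monocytes and 4.47 ± 8.75 in progenitors (adjusted p = 0.533, permutation test). In clones 1 to 13 it was called higher in monocytes by both tests (adjusted p = 0.0374 and 0.0385), whereas ranking by the second score called it higher in progenitors by both (adjusted p = 0.000748 and 0.00483). Ltf A (chr9:110899749-110900022) was in 11 monocyte lists (median percentile 21.02, median rank 19586) and in 23 progenitor lists (79.5 and 17589). Ltf B (chr9:110921581-110921855) was in 9 monocyte lists at a median percentile of 48.6 and in 17 progenitor lists at 36.1. Ltf D (chr9:110959369-110959596) was in 0 monocyte and 22 progenitor lists, and 56.4% of all regions in at least 5 lists were in no monocyte list.

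The Lcn2 window had 4 tested regions, of which 1 was called. Lcn2 B (chr2:32243269-32243553) was in 19 monocyte lists at percentiles of 10.9 to 98.4 (median 77.1) and in 22 progenitor lists at 16.1 to 84.3 (median 70.6). Among the 10000 highest peaks it was in 14 of 18 monocyte libraries and in none of the 24 from progenitors (adjusted p = 5.66e-06, Fisher's exact test). Its position was 37.5 ± 28.3 in monocytes and 0 in all progenitors (adjusted p = 8.57e-05, permutation test). Monocytes were higher in 14 of 18 clone pairs and the other 4 were tied at 0, in clones 3, 10, 20 and 21. Both calls were kept under each of the 13 alternatives, which reused the same lists. Lcn2 B entered the test through monocyte lists alone, so its calls say nothing of the window as a whole.

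Lcn2 A (chr2:32237371-32237626) was among the 10000 highest peaks of all 18 monocyte and 24 progenitor libraries. Its position was 76.2 ± 13.3 in monocytes and 74.5 ± 14.5 in progenitors, which did not pass the test (adjusted p = 0.765). Lcn2 C (chr2:32250984-32251461) was among the 10000 highest in 16 monocyte and 13 progenitor libraries, at positions of 19.2 ± 17.4 in monocytes and 9.87 ± 11.1 in progenitors (adjusted p = 0.0791 by presence and 0.0664 by position). Without the monocytes of clones 3 and 10, its position passed the test (difference 10.5, adjusted p = 0.0453). Lcn2 D (chr2:32251606-32251939) was in 6 monocyte and 12 progenitor shortened lists, at positions of 5.98 ± 10.7 in monocytes and 5.78 ± 7.05 in progenitors (adjusted p = 0.961). Ranked by the second score, its presence was called higher in progenitors (difference -40.3 percentage points, adjusted p = 0.0472, Fisher's exact test). As deposited, the smaller region at 32248587 was in 7 monocyte and 1 progenitor lists, and that at 32244816 in 0 monocyte and 16 progenitor lists. Of all regions in at least 5 lists, 1.2% were held by more monocyte than progenitor lists and 56.4% by no monocyte list.

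**Figure D2:**
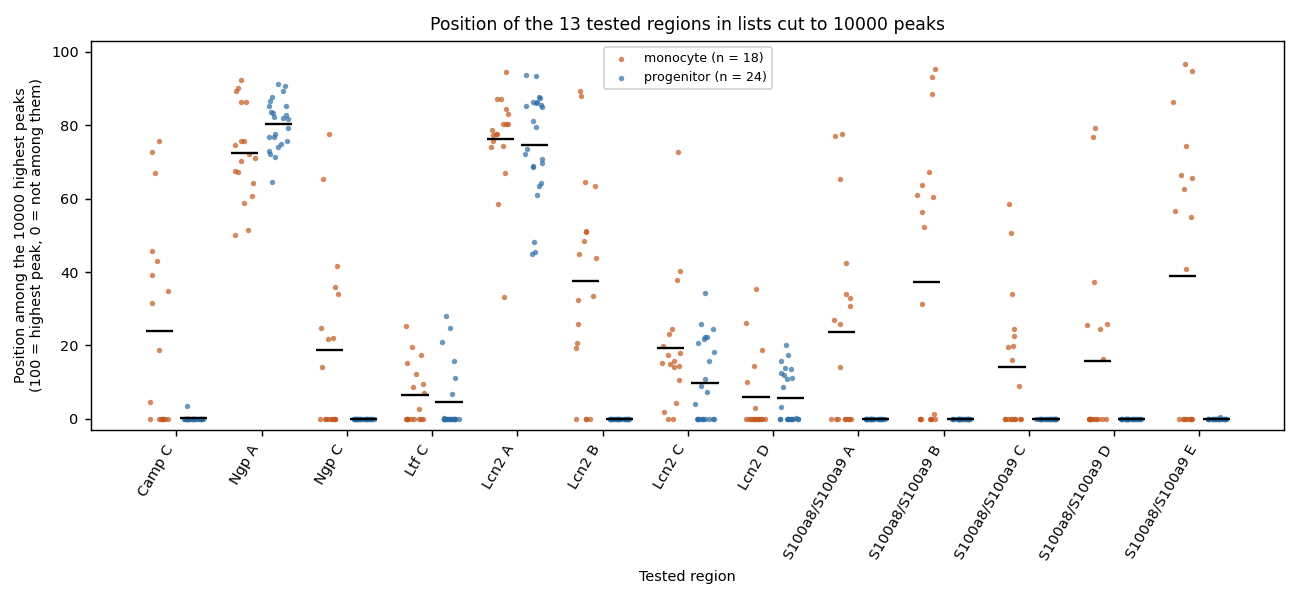
Position of the 13 tested regions among the 10000 highest peaks of each library (0, not among them; 100, highest peak), with 18 monocyte libraries (orange) left of 24 progenitor libraries (blue) and bars at the means. Progenitor points lie at 0 for Lcn2 B, Ngp C and S100a8/S100a9 A to D, while Ngp A and Lcn2 A are high in both stages; the lower monocyte mean of Ngp A turned to a higher one when ranked by the second score.

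The 8 regions called higher in monocytes were unevenly shared among clones. In the shortened lists, the monocyte libraries of 6 clones (1, 5, 8, 11, 18 and 25) held all 8. Clone 9 held 7, clones 12 and 16 held 6, clones 4 and 21 held 4 and clone 7 held 2. Clones 2, 6 and 13 held 1, and clones 3, 10 and 20 held 0. Among progenitor libraries, clones 18 and 21 held 1 and the other 22 held 0. The regions were chosen by their calls in the same lists, so the low progenitor counts follow from that choice. Among monocyte libraries with 8, relative depth ran from 0.652 to 1.43, and among those with 0 it ran from 0.689 to 1.15. The mitochondrial share was high in clones 3 and 10, as given above, and 1.75% in clone 20, whose list held 38786 peaks. Without the monocytes of clones 3 and 10, presence calls higher in monocytes numbered 8 of 13 tested, against 11.5% of all regions in that fit, and position calls 9 of 13, against 24.6%.

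As deposited, the count was less uneven for clones 2, 6 and 13, whose monocyte lists held all 8 of the regions at lower ranks. Clone 15 monocytes, too short a list to enter the tests, also held all 8, with S100a8/S100a9 E at rank 49, Lcn2 B at rank 119, Camp C at rank 168 and Ngp C at rank 1034.5. The monocyte lists of clones 3 and 10 held 0 and 1 of the 8 and no peak in the S100a8 and S100a9 window. Those of clones 19 and 22, with 4642 and 231 peaks, held none of the 79 regions. Leaving out each of the 42 libraries in turn gave 8 or 9 presence calls higher in monocytes and 0 higher in progenitors. The 8 regions had at most 1 progenitor library each among the shortened lists, so this range does not measure how firmly the stages differ. The share of all regions called in these fits was not determined.

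**Figure D3:**
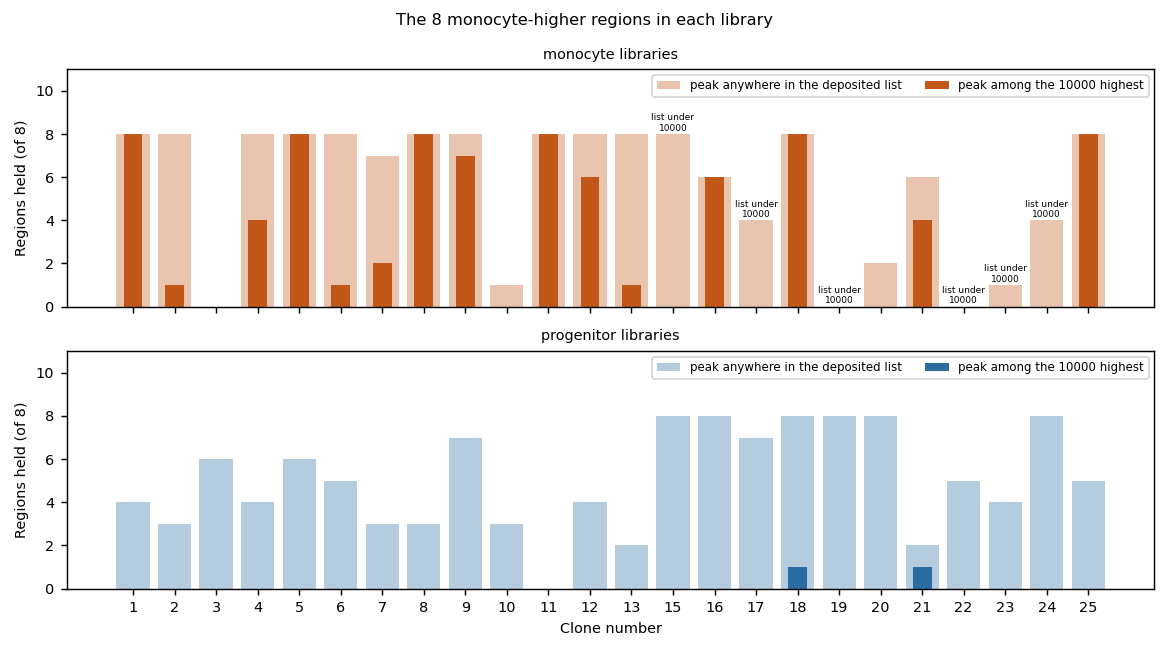
Number of the 8 monocyte-higher regions held by each library (upper panel monocytes, lower panel progenitors; clones along the axis), anywhere in the deposited list (pale) and among its 10000 highest peaks (dark). Monocytes of 6 clones reach 8 dark and those of clones 3, 10 and 20 reach 0, while progenitors reach 8 pale bars in clones 15, 16, 18, 19, 20 and 24 and at most 1 dark. The regions were chosen by their calls in the same shortened lists, which sets the contrast between stages in dark bars.

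Progenitor lists of some later clones held most or all of these regions, mostly below their 10000 highest peaks. The progenitor lists of clones 15, 16, 18, 19, 20 and 24 held all 8 regions as deposited, that of clone 17 held 7, and those of clones 1 to 13 held 0 to 7. The later clones 21, 22, 23 and 25 held 2, 5, 4 and 5, within the range of clones 1 to 13. S100a8/S100a9 E was in 1 of 13 progenitor lists of clones 1 to 13 (clone 9, percentile 30.8) and in 8 of 11 later ones. In clones 15 to 20 and 24 it stood at percentiles of 64.1 to 92.3 with 62 to 350 tags. Ngp C and Ngp D were each in 0 of 13 earlier and 7 of 11 later progenitor lists. In all, 5 of the 39 regions were in at most 1 earlier and at least 7 later progenitor lists, against 0.657% of all regions in at least 5 lists. The other 2 were chr3:90463394-90463538 and chr3:90486161-90486375. This cut was not planned beforehand and lies at the counts of these 5 regions, so the share beside it does not measure an excess. Relative depth of the earlier progenitor libraries was 1.76 to 2.35, and that of clones 15 to 20 and 24 was 1.81 to 5.07. In clones 21, 22, 23 and 25 it was 0.129, 1.67, 1.81 and 0.0894. Clones 17 to 20 carry a naming code of their own, CRb3, whereas clones 15, 16 and 24 carry the code of clones 1 to 13, and the part of depth, list length or naming code in this pattern was not tested.

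**Figure D4:**
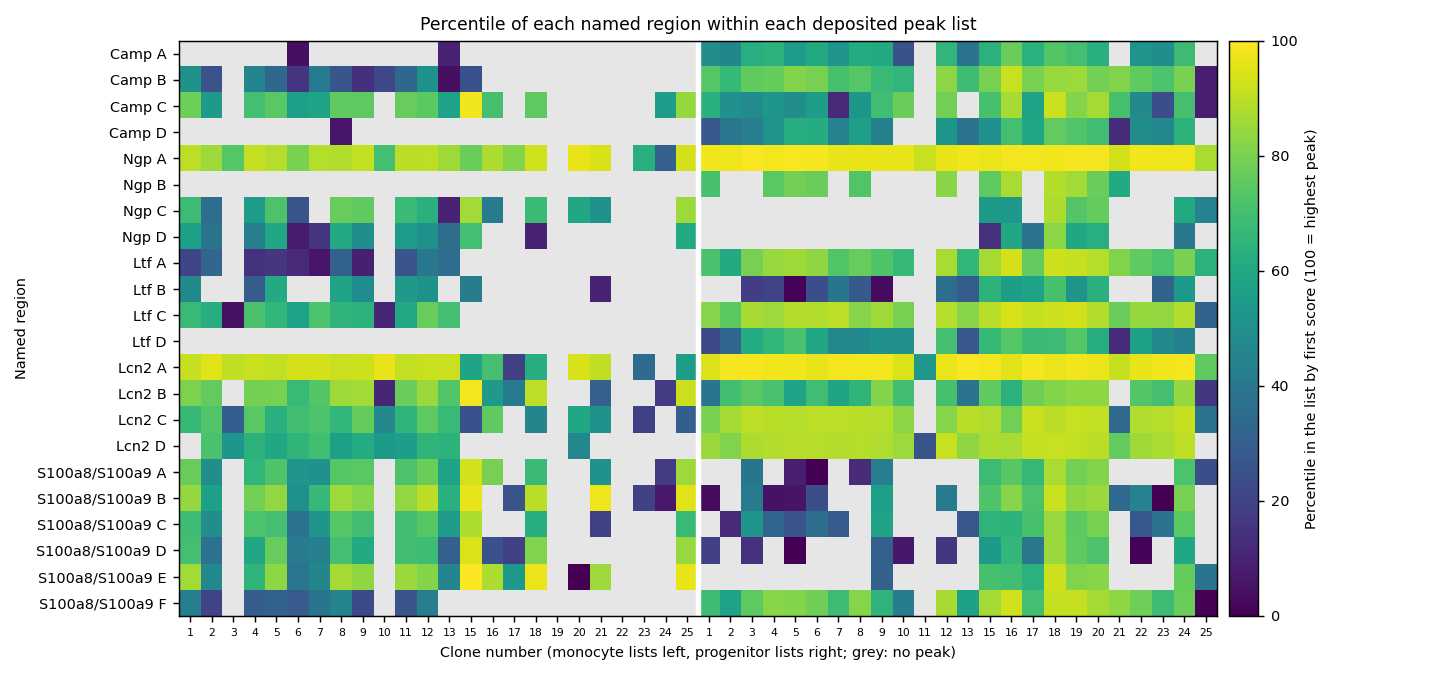
Percentile of each of the 22 named regions (rows) within each deposited list (100, highest peak; grey, no peak), with the 24 monocyte lists left and the 24 progenitor lists right, by clone number. Ngp A and Lcn2 A are high in most lists of both stages, the columns of monocyte clones 3 and 10 are grey over the S100a8/S100a9 rows, and the Ngp C and Ngp D rows are grey in all progenitor clones 1 to 13 and filled in 7 later ones each.

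Whether a clone's monocytes held the regions that its own progenitors held could be tested for 2 of the 79 regions, those held and lacked by at least 3 of the 18 paired clones in each stage. Ltf C was in both stages of 1 clone, in monocytes only of 8, in progenitors only of 2 and in neither of 7. Lcn2 D was in both stages of 3 clones, in monocytes only of 3, in progenitors only of 6 and in neither of 6. Neither passed (unadjusted and adjusted p = 1 for each, two-sided Fisher's exact test). Over all 3033 regions tested this way, 0 passed the adjusted threshold, 170 had an unadjusted p under 0.05 and the smallest adjusted p was 0.163.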

How the data were processed

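The files are 48 deposited peak lists in mm9 coordinates, 1 per library, without headers. BWA and mm9 are named in the submitters' processing notes; the sources used here do not give the peak caller, filters or any transposase shift. The authors gave each peak 2 scores of unstated unit. The first deposited score served to rank peaks within a list, and its steps (values below 40 steps within 0.1 step of a whole number for 90.8% to 100% of peaks) were read as tags. Each deposited list belongs to 1 library.

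Regions were merged over all lists by 1 bp of overlap. Lists under 10000 peaks (monocytes of clones 15, 17, 19, 22, 23 and 24) were left out of tests. At rank 10000, peaks had 9 to 71 tags in monocytes and 12 to 560 in progenitors, which limits ranks near that place. Clone number pairs the samples, since both libraries of a number come from one clone. Tests used Python 3.11.15, numpy 2.4.6, pandas 2.3.3 and scipy 1.17.1 at an adjusted p of 0.05 and were tested on simulated data. Text names the 4 regions held by most lists per window (ties by median percentile) and any called region. The members, lists and alternatives were chosen with earlier results of these data known. With no mm9 annotation used here, other granule genes and cell type markers were not analysed here.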

Additional observations from a re-analysis of the deposited data

How the results depend on the processing

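Counts are given with the share of all regions called the same way in the same fit. By presence, regions called higher in monocytes were 3 of 5 tested with lists of 5000 peaks (12.3% of all), 3 of 7 with lists of 4000 (14%), 12 of 21 with lists of 20000 (14.4%) and 5 of 12 in clones 1 to 13 (7.85%), against 8 of 13 as reported (11.5%). By position they were 3 of 5 with 5000 peaks (25.9%), 5 of 7 with 4000 (25.8%) and 12 of 21 with 20000 (27.9%), against 8 of 13 (24.5%). Counts called higher in progenitors by position, 1 as reported (26.2% of all), were 0 with 5000 peaks (27%), 0 without the filter on lists (8.64%), 0 with clone pairs as blocks (22.1%), 0 without the monocytes of clones 3 and 10 (26.6%), 2 of 21 with 20000 peaks (23.8%) and 2 of 16 with ranking by the second score (17.4%). That ranking also gave 3 of 16 presence calls higher in progenitors (15.4%), a share near that of all regions, against 0 as reported (12.4%). The causes were not tested. List length also changed the libraries: 23 monocyte libraries were kept with 4000 peaks, 21 with 5000 and 12 with 20000, against 18 as reported.

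With the clone pairing as a block, 6 of 13 regions were called higher in monocytes by presence (4.92% of all) and 8 of 13 by position (19.6%); Camp C and S100a8/S100a9 D lost the presence call and Ngp A the position call, and it ended no other call.

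Differences that changed sign, monocyte minus progenitor, were these. For Lcn2 A, position was -0.44 with 5000 peaks, -4.66 with 4000, -0.116 without the monocytes of clones 3 and 10 and -1.11 without the progenitors of clones 11, 21 and 25. For Ltf C, presence was -8.33 percentage points with 20000 peaks and -63.9 by the second score, and position was -24.2 by the second score. For Lcn2 D, position was -6.19 with 20000 peaks, -19.3 by the second score and -2.90 without the monocytes of clones 3 and 10. Merging across 500 bp joined Lcn2 C and Lcn2 D into a single region, with a presence difference of 18.1 percentage points. That value is not a sign change of Lcn2 D alone. By the second score, position was 46.5 for Ngp A and -7.82 for Lcn2 C. Of 203 repeats of called values that could be tested, 188 kept call and direction. Repeats in which a region fell below the filter were not counted. S100a8/S100a9 D, for example, was tested in 10 of the 13 alternatives. Lists of 4000 peaks and the left-out libraries were chosen after seeing the data. Depth limits all ranks near the list end, and presence in a shortened list says nothing of lower peaks.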
